A study of Mus musculus with 6 samples.

Results

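The genes described here are type I interferon-stimulated antiviral genes, a set of 36 named mouse genes chosen by symbol, with earlier results of these data known. The deposited tables held 34 of them among 32286 features, and Mx1 and Mx2 were not analysed here. They were followed in single cells of regenerating quadriceps muscle from Cdh5-CreERT2:R26R-tdTomato mice, in which a Cre that tamoxifen activates under the endothelial Cdh5 promoter turns on a red reporter. All 6 libraries came from muscle collected 5 days after a cardiotoxin injury. The 3 CLL mice received Clodronate liposomes intravenously 1 day before and 2 days after the injury, to remove part of their circulating monocytes, and the 3 SHAM mice received PBS liposomes at the same times. The sources used here do not give the sex and age of the mice, the doses or the tamoxifen schedule. Each library is labelled as a biological replicate, so a comparison of CLL with SHAM rests on 3 samples against 3. The p-values weigh the difference between the groups against the spread between these samples.

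Type I interferons are secreted proteins, among them interferon beta, that bind a receptor made of IFNAR1 and IFNAR2. The receptor's kinases activate transcription factors, among them STAT2 and its partner IRF9, that bind the interferon-stimulated response element (ISRE) in the promoters of such genes. The products block viral translation (IFIT proteins, PKR), sense foreign RNA or DNA (RIG-I from Ddx58, MDA5 from Ifih1, ZBP1), degrade RNA through the OAS pathway, or tag proteins with the ubiquitin-like ISG15. Injured muscle draws in monocytes that become macrophages, and macrophages are a known source of interferon and of interferon-stimulated transcripts.

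The promoters below are shown because their letters carry the element through which interferon is known to act on such genes. No gene of the set rose in a whole class, but within macrophage/monocyte-like cluster 15 Ifit3 fell and Ifit1 rose. Of the 34 measured genes, 25 had a promoter window, from 250 bases before to 50 bases after the start, in the RefSeq table for GRCm38.p6. The ISRE core, GAAA followed by any 2 bases and another GAAA, was searched on both strands. It was in a window of 12 of these 25 genes (48.0%) and in 3.44% of all 32851 windows, which were counted by window and not by gene. TTCNNNGAA, the GAS element known from interferon gamma responses, was in a window of 6 of the 25 genes (24.0%) and in 8.30% of all windows. The 12 genes with the ISRE letters were Bst2, Ddx58, Eif2ak2, Ifih1, Ifit1, Ifit3, Ifit3b, Isg15, Oas1a, Rsad2, Slfn5 and Trim30a. Capitals mark each match on either strand, and the sequences read 5′ to 3′ on the strand of the gene.
Ifit1, chr19:34640755-34640843, plus strand: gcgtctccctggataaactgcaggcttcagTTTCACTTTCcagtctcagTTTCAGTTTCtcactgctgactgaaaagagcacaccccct
Ifit3, chr19:34583343-34583446, plus strand: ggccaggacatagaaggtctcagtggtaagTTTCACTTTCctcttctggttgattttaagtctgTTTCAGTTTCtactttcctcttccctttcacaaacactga
Isg15, chr4:156200845-156200926, minus strand: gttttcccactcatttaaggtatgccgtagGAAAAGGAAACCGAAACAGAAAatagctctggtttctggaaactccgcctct
Rsad2, chr12:26456533-26456602, minus strand: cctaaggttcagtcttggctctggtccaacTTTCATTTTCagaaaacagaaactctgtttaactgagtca
Bst2, chr8:71537557-71537632, minus strand: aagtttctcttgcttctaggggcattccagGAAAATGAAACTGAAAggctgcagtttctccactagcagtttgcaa

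Ifit1, Ifit3 and Bst2 hold 2 matches each in these stretches, Isg15 holds 3 that overlap, and Rsad2 holds 1. The Ifit3b window has the same 104 letters as Ifit3, at chr19:34607739-34607842. Ifit2, Ifit3, Ifit3b and Ifit1 lie close together on chromosome 19 (mm10). There are 7112 bases between Ifit2 and Ifit3, 19239 between Ifit3 and Ifit3b and 27470 between Ifit3b and Ifit1. In all, 11 of the 34 genes lie within 100 kb of another, among them Oasl1 and Oasl2 on chromosome 5 and Rsad2 and Cmpk2 on chromosome 12. Counts at the 3′ ends cannot be split with certainty between near copies: 56.1% of the 50-base words in the last 500 bases of Oas1a also occur in Oas1g, and 14.9% of those of Ifit3 occur in Ifit3b.

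The libraries held 23873416 to 94841003 UMIs (unique molecular identifiers, each standing for a captured transcript). After filtering, 46685 of 60282 barcodes were kept, 1848 to 19346 per library, and 224 barcode sequences of kept cells occurred in more than 1 library. CLL replicate 2 and SHAM replicate 3 stood apart: their kept cells had medians of 1629.5 and 880 UMIs, against 2757 to 13820 in the other 4, and 48.2% and 75.5% of their cells fell in clusters without a name, against 10.3 to 21.1%. The counts of changed genes by class were also computed without these 2 libraries, a choice made after the data were seen. Of 28 clusters, 20 were named by marker genes, and 6 cell classes with at least 20 cells in every library were tested. All 12 endothelial and all 15 macrophage/monocyte markers were higher in the class named for them than in other cells, as were all 13 dendritic, 12 fibroblast and 12 myogenic markers, 9 of 10 tenocyte and 9 of 10 glial markers. The same lists named the clusters, so this is not an independent check of the names. Cells were few in some arms: 41, 201 and 56 endothelial-like cells in the CLL libraries against 2595, 285 and 186 in the SHAM libraries.

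Summed over the 34 genes, interferon-stimulated transcripts were a smaller share of the RNA in every tested class of CLL muscle. In macrophage/monocyte-like cells they made up 3039, 3075 and 2724 CPM (counts-per-million, the UMIs of the set relative to all UMIs of the class) in CLL muscle, listed here and below in the order of the replicates, and 3847, 4728 and 4951 in SHAM muscle. Endothelial-like cells held 2050, 2620 and 1719 CPM in CLL and 4043, 4059 and 4318 in SHAM. Fibroblast/tenocyte-like cells held 1396, 1334 and 1423 against 2031, 2412 and 2420. In these 3 classes no CLL library reached the lowest SHAM library. Dendritic-like cells did not overlap either, with 2137, 1666 and 2286 CPM in CLL and 2933, 3253 and 3682 in SHAM. Myogenic-like cells, with 647, 885 and 619 against 919, 736 and 1446, and glial-like cells, with 1570, 1033 and 1283 against 1778, 1353 and 1982, overlapped. A few genes carry these sums: Ifi27l2a, which encodes a small membrane protein, Bst2 (tetherin, which holds budding virions at the cell surface) and Ly6e, a surface protein that restricts coronavirus entry, gave 25.0%, 13.8% and 12.9% of the macrophage sum. Without Ly6e, Bst2 and Lgals3bp the log2 ratio of CLL to SHAM went from −0.72 to −0.86 in fibroblast/tenocyte-like cells and moved by less than the spread between libraries in the other 5 classes. In macrophage/monocyte-like cells the ratio of the SHAM mean to the CLL mean went from 1.53 to 1.38. Sums without Ifi27l2a were not computed.

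**Figure D1:**
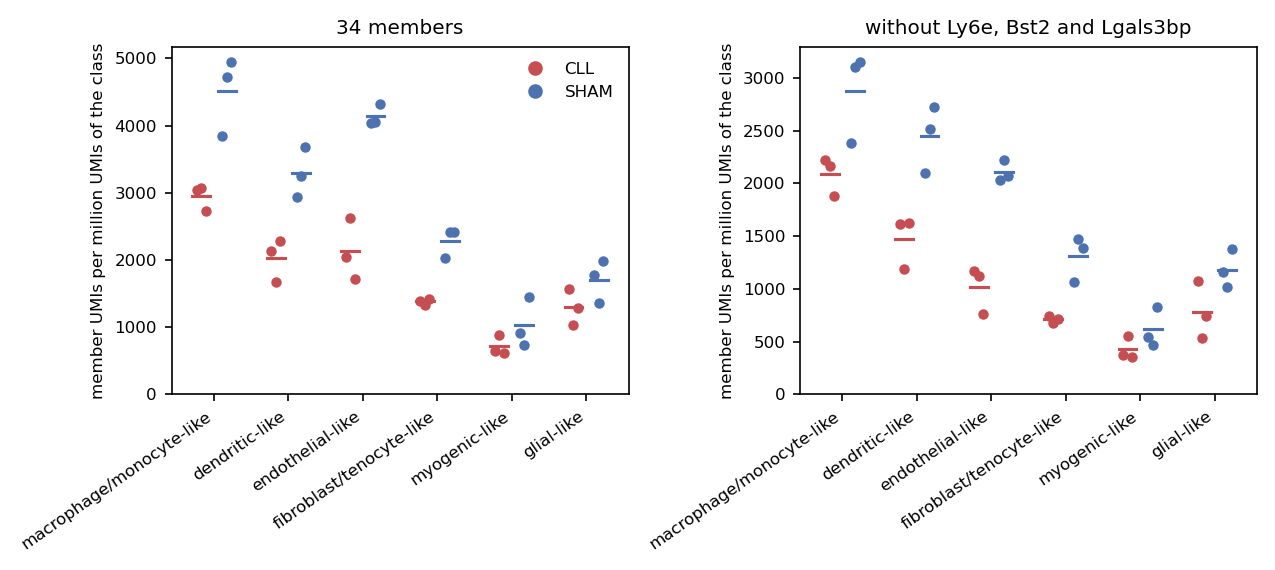
Summed level of the interferon-stimulated genes in unscaled CPM of the class, for 34 genes (left) and without Ly6e, Bst2 and Lgals3bp (right); points are libraries, bars are group means, and the 2 panels have different axes. In the left panel CLL libraries lie below all SHAM libraries in 4 of the 6 classes, with macrophage/monocyte-like cells at 2724 to 3075 against 3847 to 4951.

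Gene by gene, every change that passed the test in a whole class was a fall. A gene was taken to have changed in a class when the Benjamini-Hochberg adjusted p over all genes tested was under 0.05 in edgeR's quasi-likelihood test of the library sums. Of the 34 genes, 29 fell in at least 1 of the 6 classes, as 15.0% of the 14895 genes tested in any of them did. In at least 3 classes 9 of the 34 fell (0.658% of all genes), and none rose in a whole class. Among the 34, 22 had a negative fold in every class in which they could be tested. The same count was not made over all genes, and the classes come from the same 6 libraries. Rtp4, a chaperone of surface receptors, fell in 5 classes, and Ifit3, a partner of IFIT1 in binding foreign RNA, and Oasl2, an OAS-like protein, fell in 4. Oasl1, Bst2, Dhx58, Ifi35 and Eif2ak2 passed the test in no class.

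**Figure D2:**
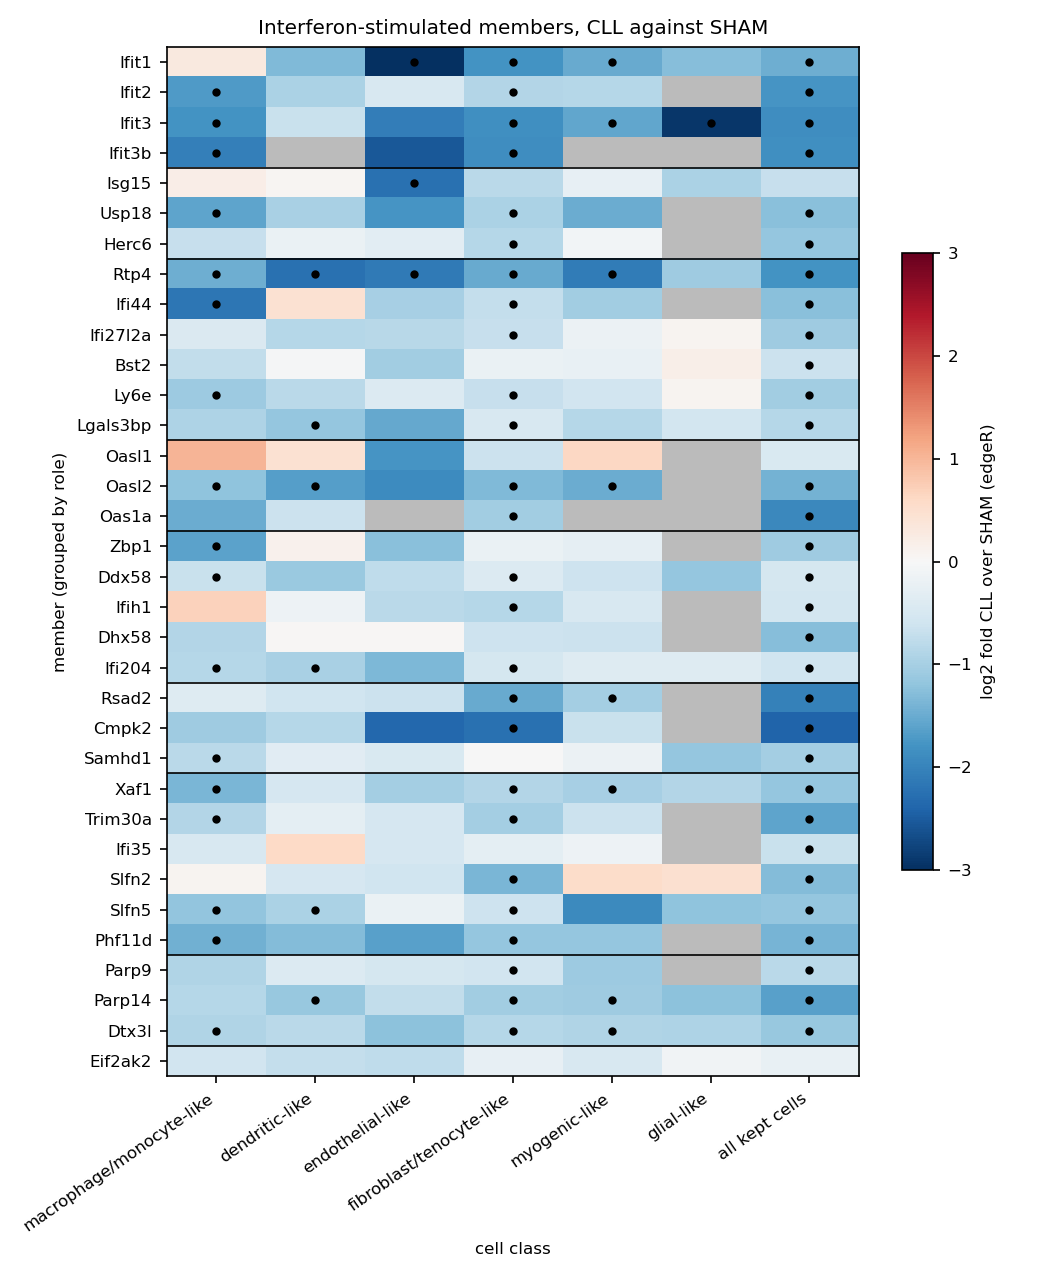
Log2 fold of CLL over SHAM (edgeR) for the 34 genes (rows, grouped by role) in the 6 classes and in all kept cells pooled (columns); a dot marks an adjusted p under 0.05 and grey a gene not tested. The dots fall on blue cells, 17 in macrophage/monocyte-like and 26 in fibroblast/tenocyte-like cells, while Ifit1, Isg15, Oasl1, Ifih1 and Slfn2 are red in macrophage/monocyte-like cells without a dot.

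In macrophage/monocyte-like cells 17 of 34 genes fell and none rose, where 0.974% of the 11707 genes tested fell and 0.444% rose. The other 17 did not pass. The median fold of the set was −0.90 on the log2 scale against 0.01 for all genes. In 27 of the 34 every CLL library lay below every SHAM library, which 12% of all genes did, and in 2, Oasl1 and Ifih1, every CLL library lay above (11.6%). The 17 that fell came from most roles: 3 of 4 IFIT genes, 3 of 5 sensors, 1 of 3 OAS genes, Usp18, and 4 of 6 in the group of Schlafen genes and other regulators. The number of genes that passed depended on which libraries were kept. It was 0 when CLL replicate 1 or 3 or SHAM replicate 2 or 3 was left out. It was 11 without SHAM replicate 1 and 26 (24 lower and 2 higher) without CLL replicate 2. Without CLL replicate 2 and SHAM replicate 3 together it was 21, 20 of them lower. The median fold stayed between −1.0 and −0.79 when any 1 library was left out, and at least 29 of the 34 folds were negative each time. The share of all genes that passed in these refits is not given here.

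Ifit3 shows the main pattern. Its level in macrophage/monocyte-like cells was 11.5, 9.52 and 14.3 CPM, for single genes scaled by TMM within the class, in CLL and 35.3, 47.1 and 40.5 CPM in SHAM. The groups did not overlap, and the log2 fold was −1.78 ± 0.19 (SE; edgeR, adjusted p = 0.014). Ifit3b, its near copy, had a log2 fold of −2.06 ± 0.22 (edgeR, adjusted p = 0.014). Ifit2, which promotes apoptosis of infected cells, was at 8.51, 11.2 and 11.1 CPM against 25.5, 47.9 and 28.5, a log2 fold of −1.71 ± 0.26 (edgeR, adjusted p = 0.028). Ifit1, the fourth IFIT gene of the set, which binds RNA caps that lack ribose methylation, did not follow them. Its CLL values of 32.8, 23.2 and 29.4 CPM overlapped the SHAM values of 21.6, 31.7 and 17.6 CPM, and its log2 fold was 0.29 ± 0.23 (edgeR, adjusted p = 0.59).

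Other roles also held genes that fell and genes that did not pass. Zbp1, a sensor of Z-form nucleic acids that can start necroptosis, was at 19.8, 14.9 and 18.8 CPM in CLL and 41.3, 63.4 and 59.9 CPM in SHAM macrophage/monocyte-like cells, with no overlap and a log2 fold of −1.61 ± 0.20 (edgeR, adjusted p = 0.019). Ifih1, the sensor MDA5 of long double-stranded RNA, was at 70.4, 47.8 and 52.6 CPM against 32.1, 45.4 and 29.0 CPM. Its 3 CLL values lay above all SHAM values, but the log2 fold of 0.69 ± 0.21 did not pass (edgeR, adjusted p = 0.15). Among the OAS genes, which detect double-stranded RNA or resemble those that do, Oasl2 fell (log2 fold −1.21 ± 0.15; edgeR, adjusted p = 0.017). Oasl1, known as a repressor of IRF7 translation, was at 67.0, 45.3 and 47.3 CPM in CLL and 25.8, 34.7 and 18.7 CPM in SHAM, a log2 fold of 1.02 ± 0.24 that missed the threshold (edgeR, adjusted p = 0.087) and passed under 7 of 16 alternatives. Within the ISG15 system, Usp18, the protease that removes ISG15 and blocks IFNAR2, fell from 13.8, 17.6 and 13.5 CPM in SHAM to 3.87, 4.76 and 6.07 CPM in CLL (log2 fold −1.59; edgeR, adjusted p = 0.021). Isg15 itself was at 186, 112 and 125 CPM in CLL against 68.9, 168 and 131 CPM in SHAM, and these ranges overlapped. Among the SHAM libraries, SHAM replicate 1 had the lowest Isg15 level in all 6 classes, which held for no other gene of the set.

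The other genes that fell in these cells had log2 folds between −2.18 and −0.68. Ifi44, whose function is poorly known, had the most negative fold, −2.18 ± 0.29 (edgeR, adjusted p = 0.020). Rtp4 was at 24.6, 13.9 and 20.5 CPM in CLL and 44.5, 63.4 and 55.3 CPM in SHAM, without overlap (log2 fold −1.46 ± 0.22; edgeR, adjusted p = 0.027). Slfn5, a Schlafen protein of the nucleus, was at 57.3, 61.9 and 50.9 CPM against 118, 146 and 120 CPM (log2 fold −1.17 ± 0.15; edgeR, adjusted p = 0.019). Samhd1, which hydrolyses the nucleotides that reverse transcription needs, was at 85.9, 75.6 and 83.8 CPM against 124, 161 and 147 CPM (log2 fold −0.82 ± 0.14; edgeR, adjusted p = 0.041). The groups were apart for each of these 4 genes. Slfn2, which is needed for quiescence of T cells and monocytes, overlapped, at 561, 299 and 480 CPM against 334, 566 and 375 CPM.

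**Figure D3:**
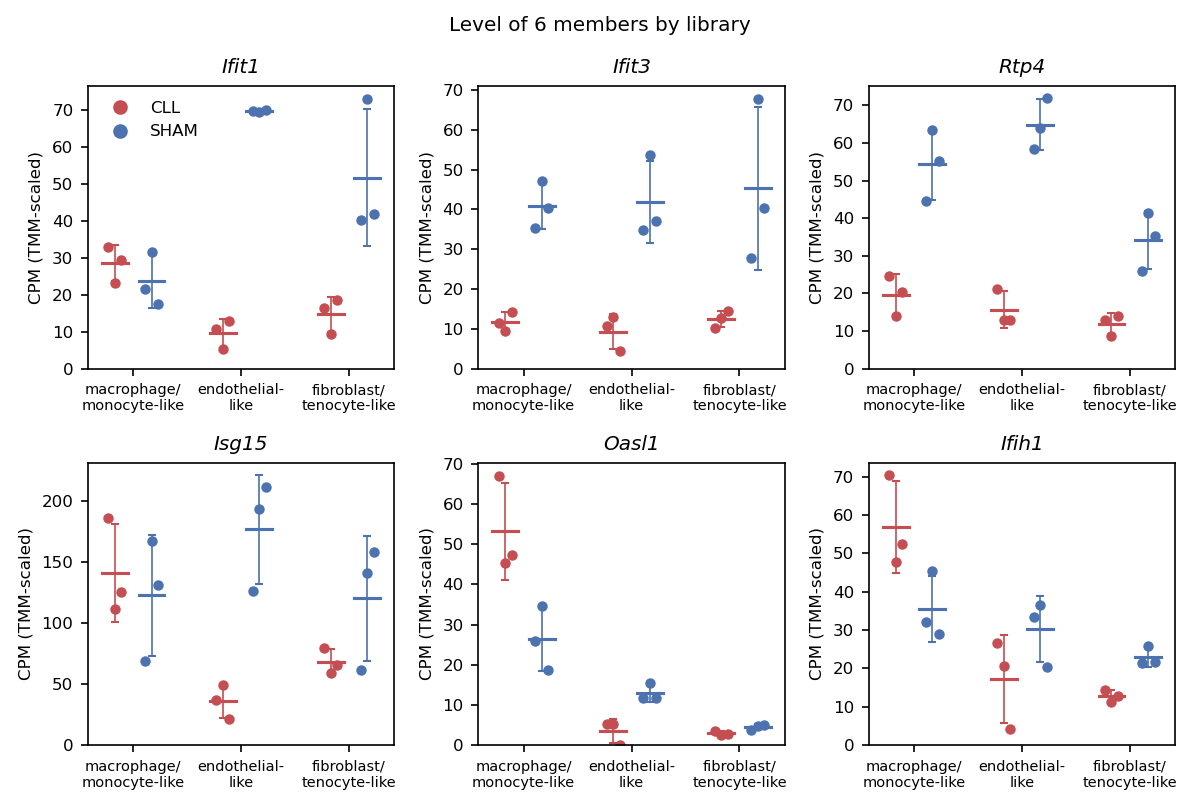
Level of 6 genes by library in 3 classes, in TMM-scaled CPM; points are libraries, thick bars means and whiskers the SD, with a separate axis per gene. Ifit3 and Rtp4 are lower in CLL in all 3 classes, while in macrophage/monocyte-like cells Ifit1 overlaps and Oasl1 and Ifih1 lie higher in CLL.

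The macrophage/monocyte-like class is made of 4 clusters, which were also tested one by one. Cluster 15, led by Il1b and class II antigen-presentation genes, held a mean of 32.9% of the class in CLL and 48.1% in SHAM libraries. In it 20 of 34 genes fell and 3 rose, where 2.38% and 1.32% of all genes tested did. The 3 that rose were Ifit1, Oasl1 and Ifih1. Ifit1 was at 45.2, 32.4 and 39.0 CPM in CLL and 19.5, 25.5 and 12.8 CPM in SHAM cells of this cluster, without overlap (log2 fold 1.05 ± 0.23; edgeR, adjusted p = 0.030). Oasl1 was at 75.4, 56.0 and 62.3 CPM against 31.6, 38.5 and 21.8 CPM (log2 fold 1.10 ± 0.20; edgeR, adjusted p = 0.016). Ifih1 was at 85.4, 62.2 and 65.6 CPM against 34.3, 49.3 and 32.5 CPM (log2 fold 0.91 ± 0.19; edgeR, adjusted p = 0.026). The CLL libraries were the 3 highest for each of these genes. In the same cells Ifit3, at 9.96, 12.4 and 10.7 CPM against 38.9, 52.1 and 33.8 CPM, had a log2 fold of −1.95, and Zbp1 one of −1.71. Ifit3 and Zbp1 passed the test in this cluster under all 10 alternatives, including each library left out. The 3 rises did not pass without CLL replicate 1 or CLL replicate 3, and those of Ifit1 and Ifih1 also not without CLL replicate 2 or SHAM replicate 3, with folds between 0.74 and 1.27 throughout. The number of changed genes here was 3 without CLL replicate 1 and 4 without CLL replicate 3.

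Cluster 12, led by F13a1, Cbr2 and Ccl8, gave 16 falls and 2 rises among 33 genes (2.52% and 1.51% of all genes). The 2 rises were Oasl1, at 98.9, 76.6 and 78.4 CPM against 35.6, 50.2 and 33.8 CPM, and Ifih1, at 110, 76.6 and 75.4 CPM against 44.5, 60.0 and 40.3 CPM. That of Oasl1 passed under 9 of 10 alternatives, not without CLL replicate 1. That of Ifih1 passed under 4 of 10, and not without CLL replicate 1, 2 or 3 or SHAM replicate 1 or 3. Ifit1 overlapped in this cluster (log2 fold −0.06). Cluster 14, led by Gpnmb and Mmp12, gave 6 falls and no rise among 32 genes (1.25% and 0.673% of all genes). Cluster 6, led by Mrc1, Stab1 and Pf4, gave no change among 27, as 0.0% of all its genes passed in edgeR. In cluster 6 an unadjusted edgeR p under 0.05 was found for 17 of the 27 and for 1315 of all 7775 genes tested. Single libraries moved these counts too, to 3 in cluster 12 without CLL replicate 1, 7 without CLL replicate 2 or 3 and 6 without SHAM replicate 3. In cluster 14 the count was 1, 3 and 0 when CLL replicate 1, 2 or 3 was left out, 16 when SHAM replicate 1 was and 1 when SHAM replicate 3 was.

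**Figure D4:**
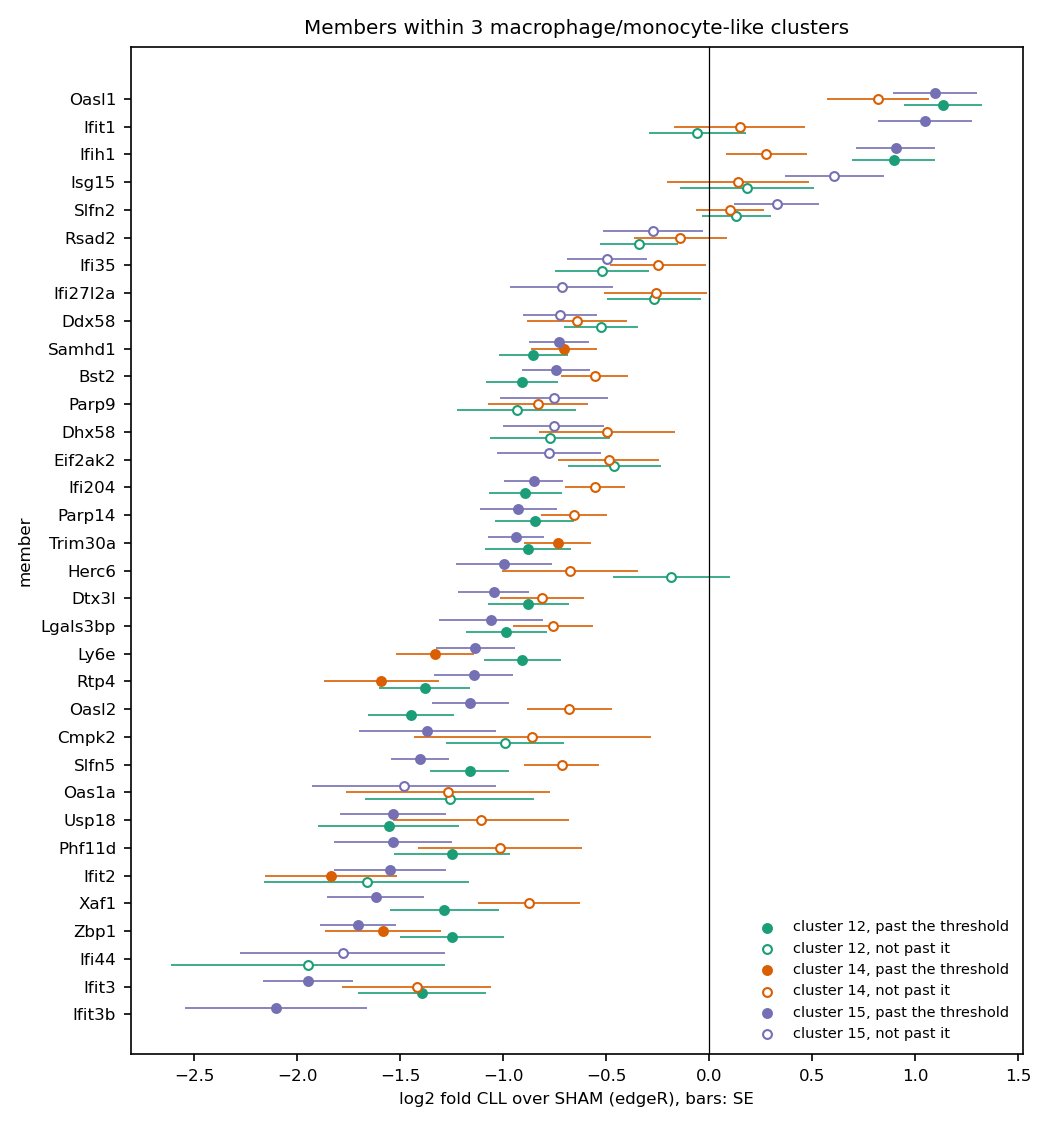
Log2 fold of CLL over SHAM (edgeR, horizontal axis, bars are the SE) of each gene of the set (vertical axis) within macrophage/monocyte-like clusters 12, 14 and 15 (colours). Ifit1, Oasl1 and Ifih1 are positive in cluster 15 (0.91 to 1.10), in which Ifit3 and Zbp1 are at −1.95 and −1.71.

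The class's own markers and other cell types' transcripts were measured in the same cells. The class's own 15 macrophage/monocyte markers summed to 30680 to 45076 CPM in CLL and 63302 to 70398 in SHAM cells. These sums did not overlap and were lower in CLL, as was the summed level of the set, with 1 of 15 markers passing the test. B-cell and plasma-cell markers stood at 43.2 to 48.1 against 112 to 146 CPM, and fibroblast markers at 2015 to 12687 against 3686 to 7361. Neutrophil markers were at 69.1 to 177 against 46.6 to 51.6 CPM, with 1 of 3 tested markers higher. Their part in the results was not tested.

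Of the genes that carry the signal to this set, Ifnb1 rose and 5 of 13 signalling factors fell in macrophage/monocyte-like cells. Ifnb1, which encodes interferon beta, was at 131, 41.1 and 109 CPM in CLL and 12.4, 20.7 and 6.79 CPM in SHAM libraries. The groups did not overlap, with a log2 fold of 2.86 ± 0.50 (edgeR, adjusted p = 0.039). Cxcl10, a chemokine that interferons and NF-κB induce, also rose: 634, 361 and 436 CPM against 129, 223 and 150 CPM (log2 fold 1.51 ± 0.27; edgeR, adjusted p = 0.043). Stat2 and Irf9 fell, with log2 folds of −1.13 and −0.71. Irf7, the factor that amplifies interferon production, was at 43.0, 29.5 and 43.5 CPM against 92.3, 170 and 161 CPM (log2 fold −1.86; edgeR, adjusted p = 0.022), and the receptor genes Ifnar1 and Ifnar2 passed the test in none of the 6 classes. Like the set's own count, these calls did not pass without CLL replicate 1, CLL replicate 3, SHAM replicate 2 or SHAM replicate 3, and those of Ifnb1, Cxcl10, Stat2 and Irf9 also not without SHAM replicate 1, with Ifnb1's log2 fold between 2.54 and 3.27. Irf9 passed under 4 of 16 alternatives. Within cluster 15 Ifnb1 was at 231, 94.6 and 187 CPM against 18.2, 24.1 and 9.48 CPM (log2 fold 3.34 ± 0.34; edgeR, adjusted p = 0.0010), and both Ifnb1 and Cxcl10 passed there under all 10 alternatives.

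By list, 5 of 13 interferon signalling factors, among them Irf7 and Irf1, 5 of 12 interferon-inducible GTPases (Irgm1, Ifi47, Gbp2, Gbp3, Gbp9) and 14 of 56 other interferon-stimulated genes fell in macrophage/monocyte-like cells, beside 0.974% of all genes tested. Cxcl10 was the 1 gene of those 56 that rose. None of 9 brakes on the pathway and none of 13 nucleic acid sensors and adaptors outside the set passed. Median log2 folds were −0.58, −1.40 and −0.76 for the first 3 lists, against 0.01 for all genes.

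In fibroblast/tenocyte-like cells the set fell together. Of 34 genes 26 fell and none rose, where 13.3% of the 14098 genes tested fell and 11.9% rose; the median log2 fold was −0.85 against −0.02 for all genes, and all 34 folds were negative. In 28 genes every CLL library lay below every SHAM library (21.7% of all genes). All 4 IFIT genes fell, with 2 of 3 OAS genes, 3 of 5 sensors, 2 of 3 genes of the ISG15 system and all 3 of the Parp9, Parp14 and Dtx3l complex, which modifies histones and viral proteins. The count stayed between 20 and 27 when any 1 library was left out and was 19 without CLL replicate 2 and SHAM replicate 3.

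Ifit1 was at 16.3, 9.36 and 18.5 CPM in CLL and 40.1, 73.1 and 41.8 CPM in SHAM fibroblast/tenocyte-like cells, a log2 fold of −1.80 ± 0.27 (edgeR, adjusted p = 0.0012). Ifit3 was at 10.3, 12.6 and 14.5 CPM against 27.8, 67.9 and 40.2 CPM, and Rtp4 at 13.0, 8.72 and 14.1 CPM against 26.0, 41.4 and 35.2 CPM. The groups did not overlap for any of these 3 genes. Oasl2 had the smallest p of the set: 17.1, 12.4 and 16.5 CPM against 36.5, 39.8 and 39.4 CPM, a log2 fold of −1.33 ± 0.14 (edgeR, adjusted p = 0.00018). Rsad2 (viperin, which makes a chain-terminating nucleotide) and its neighbour Cmpk2 (a nucleotide kinase that feeds it) had log2 folds of −1.51 and −2.23. Cmpk2 was low throughout, at 1.38, 0.890 and 0.704 CPM against 4.37, 5.4 and 4.26 CPM.

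The 8 genes that did not pass were Isg15, Eif2ak2 (the kinase PKR), Oasl1, Zbp1, Dhx58, Ifi35, Bst2 and Samhd1. Isg15 was at 79.4, 59.1 and 65.3 CPM in CLL and 61.4, 141 and 158 CPM in SHAM fibroblast/tenocyte-like cells, and SHAM replicate 1 lay within the CLL range (log2 fold −0.82 ± 0.27; edgeR, adjusted p = 0.0503). Zbp1, which fell in macrophage/monocyte-like cells, overlapped here at 12.4, 9.76 and 11.9 CPM against 9.8, 14 and 16.3 CPM. Oasl1 was at 3.52, 2.46 and 2.67 CPM against 3.81, 4.74 and 5.08 CPM, with a negative fold of −0.64 that missed the threshold (edgeR, adjusted p = 0.063).

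Different clusters made up this class in the groups. Cluster 5, led by Ecrg4, Ddah1 and Csrp2, held a mean of 76.9% of the class in CLL and 27.2% in SHAM libraries, and cluster 8, led by Cxcl14, Apod and Abca8a, held 15.2% and 63.5%. Within cluster 5, 14 of 34 genes fell (3.17% of all genes fell and 3.15% rose). Within cluster 8, 18 of 34 fell (8.8% and 9.37% of all genes), and none rose in either cluster. Ifit3 had log2 folds of −1.41 in cluster 5 and −1.45 in cluster 8, with overlap in cluster 8. Oasl2 was at 16.2, 11.3 and 14.9 CPM against 31.5, 31.5 and 38.2 CPM in cluster 5 and at 20.5, 14 and 24.9 CPM against 42.5, 41.0 and 41.2 CPM in cluster 8, without overlap in either. In cluster 26, led by the tendon genes Kera and Tnmd, 6 of 19 genes fell and none rose (0.684% and 0.573% of all genes). With SHAM replicate 3 left out the count in cluster 5 was 4, and with CLL replicate 3 or 2 left out it was 6 or 7; that in cluster 8 was 10 with CLL replicate 2 left out. Macrophage/monocyte markers summed to 254 to 787 CPM in CLL and 544 to 1681 in SHAM cells of the class, with 12 of 13 tested markers lower, and endothelial markers to 86.6 to 98.7 against 109 to 154. Mural markers summed to 1606 to 2417 CPM in CLL against 457 to 951, with 6 of 11 lower and 2 higher. Their part in these results was not tested.

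All 12 tested interferon-inducible GTPases fell in fibroblast/tenocyte-like cells, among them Irgm1 (log2 fold −1.07) and Iigp1 (−1.75), with 6 of 13 signalling factors, 5 of 9 brakes, 3 of 10 sensors and adaptors and 30 of 52 other interferon-stimulated genes, where 13.3% of all genes tested fell. Of those 52, 1 rose, Isg20, an exonuclease of single-stranded RNA. Cxcl10, which rose in macrophage/monocyte-like cells, fell here, from 125, 180 and 179 CPM in SHAM to 78.6, 67.6 and 84.5 CPM in CLL (log2 fold −1.07 ± 0.16; edgeR, adjusted p = 0.0010). Ifnb1 was too low to test, with 26, 6 and 16 UMIs in the CLL and 7, 0 and 1 in the SHAM libraries.

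In endothelial-like cells 3 of 33 genes fell, Ifit1, Isg15 and Rtp4, and none rose, where 0.362% of the 9390 genes tested fell and 0.106% rose. The median log2 fold of the set was −1.01, against 0.00 for all genes, and 32 of 33 folds were negative. In 18 genes every CLL library lay below every SHAM library (9.87% of all genes). An unadjusted edgeR p under 0.05 was found for 19 genes of the set and for 861 of all 9390 genes tested. Ifit1 was at 10.6, 5.16 and 12.8 CPM in CLL and at 69.7, 69.5 and 70.1 CPM in SHAM libraries. These CLL values rest on 2, 2 and 3 UMIs, against 682, 167 and 185 in SHAM, and the log2 fold was −2.99 ± 0.37 (edgeR, adjusted p = 0.0017). Isg15 was at 37.3, 49.0 and 21.4 CPM (7, 19 and 5 UMIs) against 126, 193 and 211 CPM, a log2 fold of −2.23 ± 0.33 (edgeR, adjusted p = 0.0071). Rtp4 was at 21.3, 12.9 and 12.8 CPM (4, 5 and 3 UMIs) against 58.5, 64.1 and 72 CPM, a log2 fold of −2.11 ± 0.33 (edgeR, adjusted p = 0.010). For all 3 genes the lowest SHAM library lay above the highest CLL library.

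Ifit3 was close to the threshold in these cells, at 10.6, 12.9 and 4.28 CPM against 34.7, 53.7 and 37.1 CPM (log2 fold −2.07 ± 0.45; edgeR, adjusted p = 0.078). When CLL replicate 3 was left out only Ifit1 passed, when CLL replicate 2 was, alone or with SHAM replicate 3, Rtp4 did not, and the count was 1 to 4 over single libraries left out. Bst2 and Slfn5, both abundant here, did not pass, at log2 folds of −1.05 and −0.21. Cxcl10 fell in endothelial-like cells, at 31.9, 69.7 and 21.4 CPM against 203, 172 and 106 CPM (log2 fold −1.84 ± 0.37; edgeR, adjusted p = 0.049), as did Cxcl9, another interferon-induced chemokine, and Irgm1, which controls autophagy (log2 fold −1.72; edgeR, adjusted p = 0.046). Cxcl10 did not pass without CLL replicate 1, CLL replicate 3, SHAM replicate 1 or the cells with mural markers described next. Its call was also lost with at most 10% mitochondrial UMIs, with doublets kept and with the set kept in the clustering. Cxcl10 passed under 9 of 16 alternatives, its log2 fold lying between −2.85 and −0.56 over all of them. Irgm1 did not pass without CLL replicate 1, 2 or 3 or SHAM replicate 1 or 2. It passed under 7 of 16 alternatives, not those with the mural-marker cells left out. Cxcl9 did not pass without CLL replicate 3, without CLL replicate 2 and SHAM replicate 3 together, or without the mural-marker cells.

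Endothelial-like cells carried unequal amounts of other cells' transcripts. Mural-cell markers summed to 327 to 713 CPM in CLL and 1224 to 1769 in SHAM, with 5 of 11 lower, and macrophage/monocyte markers to 771 to 892 against 3086 to 4756, with 6 of 14 lower. Lymphatic endothelial markers, at 9.61 to 2335 CPM in CLL and 35 to 250 in SHAM, spread widely among the CLL libraries. Fibroblast markers summed to 4390 to 6710 CPM against 2341 to 7050 and tenocyte markers to 242 to 684 against 129 to 225, each with 1 marker higher. Without cells holding at least 2 mural markers, an alternative added after the data were seen, 2 of the 3 genes passed, and Rtp4 did not. The part of the other markers in these results was not tested.

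In myogenic-like cells, the muscle stem and progenitor cells, 8 of 32 genes fell and none rose, where 4.15% of the 11353 genes tested fell and 2.36% rose. They were Ifit1, Ifit3, Oasl2, Rtp4, Rsad2, Xaf1, Parp14 and Dtx3l. Rtp4 was at 5.60, 2.71 and 4.73 CPM in CLL and 15.0, 29.1 and 18.2 CPM in SHAM, without overlap (log2 fold −2.09 ± 0.32; edgeR, adjusted p = 0.0064). In 12 genes every CLL library lay below every SHAM library (15.4% of all genes). Interferon-inducible GTPases had a median log2 fold of −2.22, against −0.66 for the set. Irgm1 was at 5.12, 4.07 and 6.48 CPM against 38.9, 59.3 and 47.5 CPM (log2 fold −3.11), Iigp1 had a log2 fold of −3.55, and 9 of 10 GTPases and 4 of 13 signalling factors fell, beside 4.15% of all genes. Irgm1, Iigp1 and Irf1 (log2 fold −1.61) passed without each library in turn, whereas the count of the set was 2, 4 and 1 when CLL replicate 1, 2 or 3 was left out and 5 when SHAM replicate 1 was. Mural markers summed to 2946 to 3920 CPM in CLL and 1229 to 1712 in SHAM cells of this class, with 2 of 7 higher and 2 lower. Endothelial markers stood at 16.8 to 28.7 against 34.9 to 96.7 CPM, with 2 of 5 lower, and fibroblast markers at 4273 to 7491 against 3177 to 9952, with 3 of 11 lower. Macrophage/monocyte markers, at 2228 to 4473 against 2231 to 8856 CPM, gave no call among 14. Their part was not tested.

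In dendritic-like cells 6 of 33 genes fell and none rose (3.22% of 7416 genes fell and 0.93% rose): Rtp4, Oasl2, Parp14, Ifi204, Slfn5 and Lgals3bp, a secreted scavenger-receptor protein. In 12 of the 33 every CLL library lay below every SHAM library (11.4% of all genes). Of the 33 folds, 27 were negative and 6 positive. Rtp4 had 8, 0 and 9 UMIs in the CLL and 48, 23 and 11 in the SHAM libraries (log2 fold −2.24 ± 0.41; edgeR, adjusted p = 0.0077). No gene of the set passed here without CLL replicate 1, CLL replicate 3 or SHAM replicate 1, and 2 did without SHAM replicate 3. Macrophage/monocyte markers summed to 1432 to 3006 CPM in CLL and 3317 to 7306 in SHAM cells of this class, with 5 of 15 lower. Fibroblast markers stood at 2525 to 5942 against 4105 to 11861 CPM, with 5 of 12 lower, and the endothelial, mural and adipocyte lists had 1 marker lower each. Their part was not tested. Among other interferon-stimulated genes, Ifitm1 and Epsti1 rose and 3 of 43 fell. Ifitm1, which blocks viral entry, was at 516, 491 and 574 CPM against 47.4, 48.0 and 13.8 CPM (log2 fold 3.77 ± 0.33; edgeR, adjusted p = 4.9e-05), and it is also among the leading genes of cluster 17, which held a mean of 65.1% of the class in CLL and 83.4% in SHAM. Cluster 16, led by Ccr7 and holding Epsti1 among its leading genes, held 34.9% and 16.6%. Epsti1 had a log2 fold of 0.96 ± 0.23 (edgeR, adjusted p = 0.029) and did not pass without CLL replicate 1 or 3 or SHAM replicate 1 or 3. Within cluster 17 alone 1 of 32 genes of the set fell and none rose, where 28 of all 6426 genes tested fell and 8 rose. Of these 32 folds, 25 were negative and 7 positive, with a median log2 fold of −0.73. Cluster 16 held 17 and 7 cells in SHAM replicates 2 and 3 and was not tested.

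In glial-like cells 1 of 17 testable genes fell, Ifit3 (0.858% of 5246 genes fell and 0.762% rose). Ifit3 was at 10.2, 8.04 and 6.89 CPM in CLL, which is 2, 5 and 1 UMIs, and at 35.7, 121 and 52.2 CPM in SHAM (log2 fold −2.92 ± 0.62; edgeR, adjusted p = 0.040). It did not pass without CLL replicate 1, 2 or 3 or SHAM replicate 3. In 4 of the 17 genes every CLL library lay below every SHAM library (9.53% of all genes). Fibroblast markers summed to 21811 to 27760 CPM in CLL and 12209 to 17305 in SHAM glial-like cells, with 1 of 11 higher, and myofibre markers to 862 to 1347 against 37.8 to 253, with 3 of 5 higher. Their part was not tested. Mural-like cells were not tested, since CLL replicate 3 held 14; their summed level was 1182, 430 and 1024 CPM in CLL and 1951, 2241 and 3641 in SHAM libraries. Plasmacytoid dendritic-like cells, a cell type known for interferon output, held 5904, 6625 and 6896 against 4888, 5611 and 8920 CPM, and overlapped. CLL replicate 2 and SHAM replicate 3 held 3 and 7 such cells. Without Ly6e, Bst2 and Lgals3bp the sums were 1019, 552 and 834 against 1291, 978 and 4113 CPM.

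Counted cell by cell, fewer CLL cells carried the set in the tested classes other than myogenic-like cells. To compare cells at 1 depth, each was drawn down to 1000 UMIs, and cells with fewer were left out: 222 of CLL and 507 of SHAM macrophage/monocyte-like cells, 74 and 408 endothelial-like, 89 and 72 fibroblast/tenocyte-like, 53 and 122 dendritic-like, 85 and 77 myogenic-like and 180 and 118 glial-like cells. Of macrophage/monocyte-like cells, 47.9%, 43.5% and 43.7% in CLL and 61.6%, 64.8% and 69.6% in SHAM then held at least 3 UMIs of the 34 genes. For endothelial-like cells the shares were 29.7%, 42.3% and 24.4% against 68.3%, 60.8% and 65.4%. Those of fibroblast/tenocyte-like cells were 17.6%, 16.1% and 17.7% against 31.4%, 30.3% and 34.2%, and those of dendritic-like cells 21.9%, 16.1% and 25.6% against 41.6%, 45.1% and 41.5%. In these 4 classes no share overlapped between groups. Glial-like cells, of which CLL replicates 1 and 3 held 20 each, had 15.0%, 17.1% and 5.0% against 23.8%, 17.8% and 27.0%, and at 500 UMIs their shares overlapped, at 4.55%, 3.69% and 8.33% against 7.59%, 4.08% and 15.4%. Among the 6 tested classes the lowest shares were those of myogenic-like cells, at 8.14%, 7.95% and 5.35% against 7.99%, 2.68% and 10.2%, which overlapped. At 500 UMIs they also overlapped, at 2.31%, 2.99% and 1.21% against 2.84%, 0% and 6.73%. Undrawn, the same macrophage/monocyte-like cells, with median depths of 6488.5 UMIs in CLL and 2998 in SHAM, gave shares of 96.8%, 79.2% and 95.6% against 92.6%, 98.2% and 92.6%. Undrawn shares of endothelial-like cells were 67.6%, 71.8% and 68.9% against 93.9%, 89.4% and 94.4%. Cells with an Oasl1 UMI went the other way in macrophage/monocyte-like cells, 5% to 9.67% in CLL against 1.56% to 2.96% in SHAM. In dendritic-like cells these Oasl1 shares were 3.51%, 3.57% and 3.93% in CLL against 2.01%, 0.885% and 0% in SHAM. At 500 UMIs the dendritic shares overlapped. These shares are descriptions of 3 libraries a group, without a test.

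**Figure D5:**
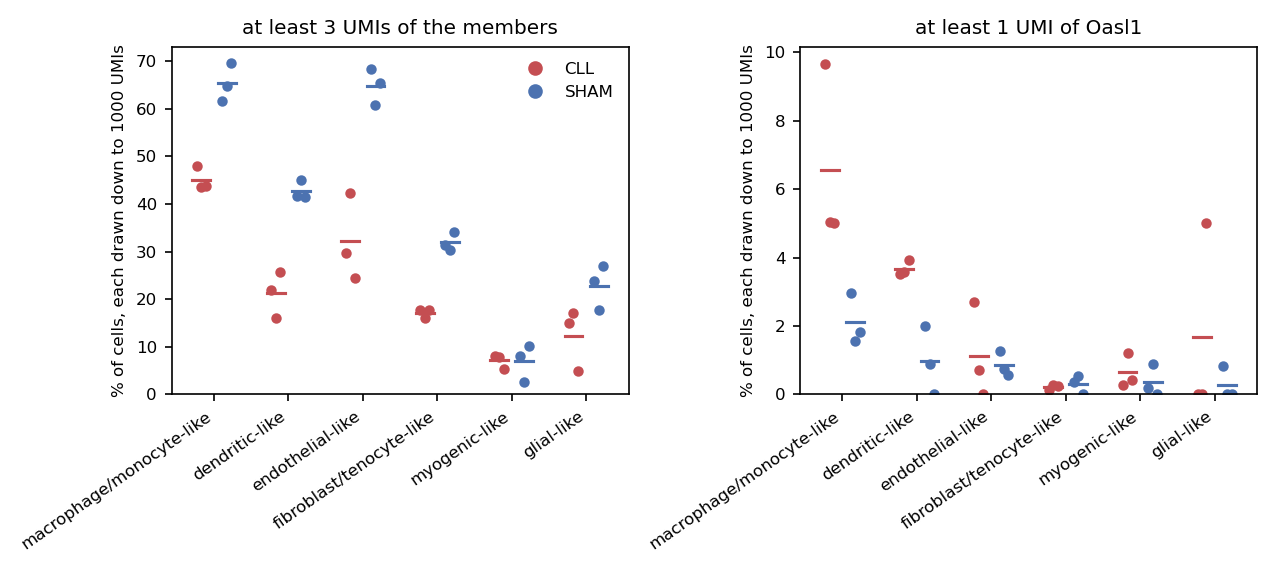
Share of cells, each drawn down to 1000 UMIs, with at least 3 UMIs of the set (left) and at least 1 UMI of Oasl1 (right); points are libraries and bars group means. CLL shares of macrophage/monocyte-like cells lie at 43.5 to 47.9% against 61.6 to 69.6% on the left, and above the SHAM shares on the right.

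Whether the change differed between classes was tested for 3 pairs as the interaction of class and treatment, blocked by library, over the 34 genes. Between macrophage/monocyte-like and fibroblast/tenocyte-like cells, 4 genes differed, where 0.529% of 13616 genes did: Ifit1 (difference in log2 fold 2.11 ± 0.18), Oasl1 (1.69 ± 0.25) and Ifih1 (1.57 ± 0.15) were higher in the macrophage response and Zbp1 (−1.37 ± 0.13) lower. Between endothelial-like and macrophage/monocyte-like cells, Ifit1 (−3.25 ± 0.45) and Isg15 (−2.43 ± 0.35) differed (0.423% of 12773 genes). Between endothelial-like and fibroblast/tenocyte-like cells, Isg15 (−1.61 ± 0.33) and Bst2 (−1.01 ± 0.21) differed (2.92% of 13450 genes). None of these passed without CLL replicate 1 or CLL replicate 3, and the 4 of the first pair also not without SHAM replicate 1 or SHAM replicate 3. Without SHAM replicate 2 Oasl1 did not pass either, and without CLL replicate 2, 9 genes of the first pair and 4 of the second did.

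Pooled over all kept cells, 31 of 34 genes fell and none rose, where 19.0% of the 16683 genes tested fell and 17.4% rose, and the median log2 fold was −1.16. Every CLL library lay below every SHAM library in 32 genes (26.3% of all genes). Isg15, Oasl1 and Eif2ak2 did not pass. In this pool fewer cells of a type and less RNA per cell cannot be told apart. Macrophage/monocyte-like cells were 700, 1128 and 1118 of 3549, 10148 and 5630 kept cells in CLL. In SHAM they were 5938, 449 and 813 of 19346, 1848 and 6164. Ifnb1 had a log2 fold of 1.31 ± 0.43 in the pool (edgeR, adjusted p = 0.043), Irf7 one of −1.79, and all 16 tested GTPases fell. The count of the set was 31 or 32 when any 1 library was left out.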

How the data were processed

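Cells of 6 quadriceps samples, 3 CLL and 3 SHAM, were captured with the 10x Chromium 3′ kit (version 3.1), per the labels' protocols. The deposited matrices hold raw UMI counts per gene and barcode that the authors made with Cell Ranger 6.1.2 on mm10, per the file headers and the submitters' processing notes. Barcodes under 300 genes or over 15% mitochondrial UMIs were dropped, and simulated-doublet scores removed 0.8% per 1000 barcodes of a library. Scanpy 1.11.5 clustered cells on 2000 variable genes (interferon genes left out), 30 principal components and 15 neighbours, by Leiden at resolution 1. A cluster was named "-like" from 17 marker lists where at least 3 markers were detected. UMI counts were summed per library and class, and CLL was compared with SHAM in edgeR 4.0.16 (R 4.3.3; quasi-likelihood test, TMM, filterByExpr, Benjamini-Hochberg over all genes tested), where every library had at least 20 cells. Differences between classes came from 1 edgeR model with library, class and class by treatment. The scripts were tested on simulated data.

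The 34 genes and all gene lists were chosen with earlier results of these data known. Any gene of the set could be named, and of the other lists the genes that passed in the class (at most 6 a list) and 10 fixed pathway genes. Intervals across cells were not used, as cells are not replicates. Correlations of deviations between same-numbered CLL and SHAM libraries ran from −0.38 (macrophage/monocyte-like) to 0.23 (endothelial-like), with all 3 pairs over 0.1 in no class, so numbers were treated as names. Alternatives were DESeq2 1.42.0, RLE size factors, no filter, the replicate number as a block, leaving out libraries, and other cell filters and clusterings. Promoter letters came from a RefSeq table of GRCm38.p6, and positions from the mm10 annotation. 2 listed genes were not analysed here, and 1 pathway gene is not reported here. Free RNA was not removed.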

Additional observations from a re-analysis of the deposited data

Results flagged for a closer look

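The response to CLL differed between classes, by a test of the difference itself (the class by treatment term in edgeR, adjusted over all genes tested), in 8 cases. Values are differences in log2 fold, the first class minus the second. Between macrophage/monocyte-like and fibroblast/tenocyte-like cells, Ifit1 differed by 2.11 (adjusted p = 0.014), Oasl1 by 1.69 (adjusted p = 0.046), Ifih1 by 1.57 (adjusted p = 0.014) and Zbp1 by −1.37 (adjusted p = 0.014). The first 3 are the genes that rose in macrophage/monocyte-like cluster 15, whereas Zbp1 fell in macrophage/monocyte-like cells and overlapped between groups in fibroblast/tenocyte-like cells. Between endothelial-like and macrophage/monocyte-like cells, Ifit1 differed by −3.25 (adjusted p = 0.013) and Isg15 by −2.43 (adjusted p = 0.015). Between endothelial-like and fibroblast/tenocyte-like cells, Isg15 differed by −1.61 (adjusted p = 0.016) and Bst2 by −1.01 (adjusted p = 0.017). None of the 8 passed without CLL replicate 1 or CLL replicate 3.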

How the results depend on the processing

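No changed gene of the set turned direction under any alternative run, and the median fold of the set stayed negative in every class. Calls of changed genes in the 6 classes held in 699 of 933 recomputations and were lost in 234; in the pool all 434 held. Counts by class moved as follows. DESeq2 gave 0 in dendritic-like and 5 in endothelial-like cells. Without the filter on low counts there were 11 in endothelial-like, 4 in glial-like, 13 in myogenic-like cells and 19 in cluster 14, and 4 genes differed between endothelial-like and macrophage/monocyte-like cells. The same-number pairing as a replicate block gave 0 in macrophage/monocyte-like, 0 in myogenic-like and 8 in endothelial-like cells and 7 in cluster 5, against 24 in fibroblast/tenocyte-like and 31 in all kept cells. Without CLL replicate 2 and SHAM replicate 3 together there were 2 in dendritic-like, 0 in glial-like and 4 in myogenic-like cells. With doublets kept there were 0 in dendritic-like, 5 in endothelial-like and 0 in glial-like cells, and with the set kept in the clustering 1 in dendritic-like cells. RLE size factors left 1 gene that differed between endothelial-like and fibroblast/tenocyte-like cells. The cause was not tested for any of these. Leaving out 1 library gave 31 to 32 changed genes in all kept cells, 20 to 27 in fibroblast/tenocyte-like, 0 to 26 in macrophage/monocyte-like, 1 to 4 in endothelial-like, 0 to 5 in dendritic-like, 1 to 7 in myogenic-like and 0 to 1 in glial-like cells. The ranges were 3 to 24 in cluster 12, 0 to 16 in cluster 14, 3 to 30 in cluster 15, 4 to 16 in cluster 5 and 10 to 19 in cluster 8, and 0 to 4, 0 to 4 and 0 to 9 for the differences of endothelial-like from fibroblast/tenocyte-like, endothelial-like from macrophage/monocyte-like and macrophage/monocyte-like from fibroblast/tenocyte-like cells. In macrophage/monocyte-like cells the log2 fold of Isg15, 0.21 with all libraries, was −0.044 without CLL replicate 1 and −0.083 without SHAM replicate 1, and reached 0.50 over single libraries left out; that of Slfn2 was −0.12, −0.073 and −0.0074 without CLL replicate 1, SHAM replicate 1 and SHAM replicate 3, and reached 0.34. Without Ly6e, Bst2 and Lgals3bp the summed log2 ratio was −0.86 in fibroblast/tenocyte-like cells. Drawn down to 500 UMIs, the CLL minus SHAM share of cells was −13.9 percentage points in macrophage/monocyte-like (−20.3 at 1000), −11.8 in dendritic-like (−21.5), −19.9 in endothelial-like (−32.7), −6.08 in fibroblast/tenocyte-like (−14.9) and −3.50 in glial-like cells (−10.5). Shares of myogenic-like cells overlapped between groups at 500 and at 1000 UMIs. Mural-like cells had too few cells for any test, and glial-like cells gave no value with the set kept in the clustering. Depth limits CLL levels in endothelial-like, glial-like and dendritic-like cells, where some genes rest on few UMIs.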
